A study of Mus musculus with 20 samples.

Results

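Liver RNA of wild-type (WT) mice that had received tunicamycin was compared with liver RNA of WT mice that had received vehicle. The arrays were chosen by their titles alone, which gave 5 tunicamycin and 5 vehicle arrays, 10 of the 20 arrays of the series, and all 22180 genes measured on them were described. Each array held the liver of 1 adult male mouse on the C57Bl6 background (C57BL/6J in the methods of the study). Tunicamycin was injected into the peritoneum at 1 µg per g of body weight, vehicle was a dextrose solution, and livers were taken 8 h later. The WT mice carried no engineered allele. The remaining 10 arrays came from mice without NFIL3 (NFIL3 KO) under the same treatments, and they entered only the estimate of the spread and the comparison at the end. All levels are log2 signal intensities, and all differences are tunicamycin minus vehicle on the log2 scale, given with their standard error (SE).

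Tunicamycin blocks the first step of N-linked glycosylation, so that unfolded glycoproteins accumulate in the endoplasmic reticulum (ER). ER stress (ERS) is sensed by IRE1, PERK and ATF6, which raise the folding capacity of the ER, slow protein synthesis through the phosphorylation of eIF2α and, through ATF4 and CHOP, switch on genes of amino acid supply and growth arrest. Hepatocytes secrete most plasma proteins and rely heavily on this response.

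At 8 h the transcriptome had moved widely and evenly in both directions. Of 22180 genes, 3035 were higher with tunicamycin and 3042 lower, 13.7% in each direction (limma, adjusted p under 0.05). In 22.2% of genes no tunicamycin value fell within the range of the vehicle values or the other way round. Most changes were small, with a median of 0.62 among the rises and -0.55 among the falls. A change of at least 2-fold was seen in 707 rises and 566 falls, of at least 4-fold in 115 and 72, of at least 8-fold in 35 and 11, and of at least 16-fold in 13 and 2. The largest effects were therefore mostly rises. The deposited values were quantile-normalized, which gives all arrays the same distribution of signals and holds rises and falls near balance. Centring each array on the median of 22 housekeeping genes moved the median difference of all genes from -0.03 to -0.51, and the calls became 1046 rises and 16258 falls. Centring on the median deviation of the same genes moved it to -0.14, with 2340 rises and 4840 falls. The median difference of the 22 genes themselves, 0.10 on the deposited scale, became -0.38 under the first centring and -0.015 under the second. The first centring therefore took these genes further from 0. Of those 22 genes, 10 were themselves called higher and 3 lower, and all changes below are relative to the deposited scale.

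The first principal component of the 10 arrays held 59.9% of the variance and parted the treatments, with vehicle arrays between -39.2 and -34.8 and tunicamycin arrays between 33.5 and 40.3. Along the second, with 7.84%, tunicamycin replicates 1 and 2 lay at 24.0 and 17.9 and replicates 3, 4 and 5 at -8.47, -12.7 and -22.4. Among 10 genes matched to the hepatocyte markers, 1 was called higher and 4 lower. Their mean level lay between 11.3 and 11.5 in vehicle and between 11.1 and 11.2 in tunicamycin arrays. The list named Trf, which was not among the measured symbols, and a synonym matched Trh in its place. Trh read 4.49 with vehicle and 4.17 with tunicamycin, below every array median. It was not called, is not the marker listed, and lowers the list means. The 12 Kupffer cell and macrophage markers had 2 called higher, with list means of 6.88 to 8.06 against 7.39 to 7.79. The 10 markers of sinusoidal endothelium had 3 called lower (7.79 to 8.02 against 7.65 to 7.95). None of the 10 neutrophil, 6 T cell, 5 B cell and 7 NK cell markers measured was called, and their list means lay between 3.58 and 4.26 on every array, below the array medians of 4.65 to 4.77. Lower expression per cell and fewer cells of a type cannot be told apart in whole liver.

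Falls were concentrated among genes with a strong signal in vehicle liver. When genes were sorted into 10 equal bins by their mean vehicle signal, 38 rises and 17 falls were found in the dimmest bin (1.71% and 0.77% of 2218 genes) and 499 rises and 967 falls in the brightest (22.5% and 43.6%). Rises were most frequent in bin 8 from the dim end, at 30.4%, against 21.8% falls. In the brightest bin the median difference was -0.20, and 279 falls but 118 rises reached 2-fold. A dim gene has little room to fall, and the vehicle signals that order the bins also enter the difference. In each of bins 1, 2 and 3, 0 falls reached 2-fold, against 0, 9 and 17 rises. Part of the pattern was therefore fixed in advance. Olfactory and vomeronasal receptor genes, which liver does not use, had 22 rises and 23 falls among 1373, with a median of 0.01. Signal also depends on the probes of each gene, so the bins order signals and not numbers of transcripts. The lists below are set against all genes, whereas falls were 28.6% in bin 9 and 43.6% in the brightest bin. Lists were not compared with genes of like signal.

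**Figure D1:**
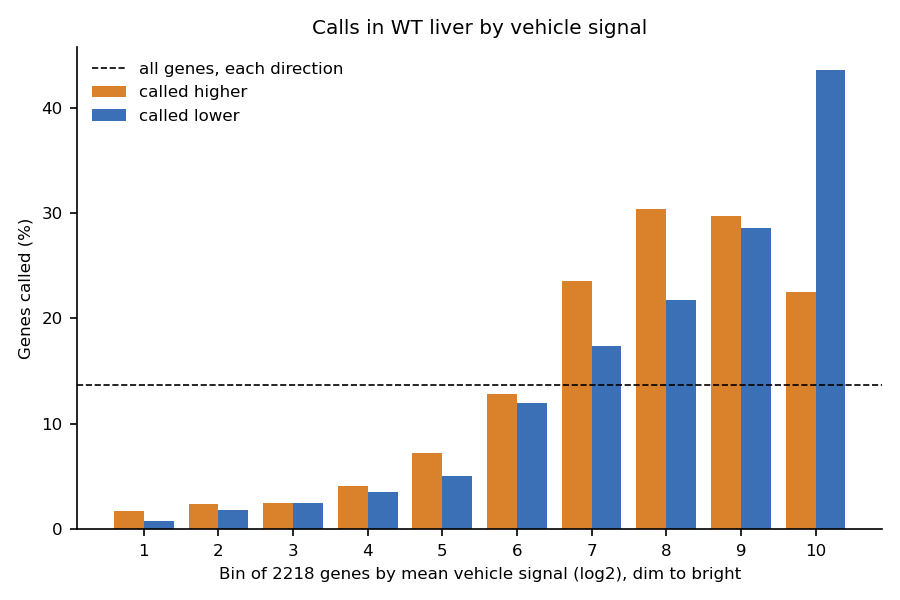
Percentage of genes called higher (orange) and lower (blue) with tunicamycin in WT liver, in 10 bins of 2218 genes ordered by mean vehicle signal (log2, dimmest bin on the left). The dashed line marks 13.7%, the share called in each direction over all genes; falls reach 43.6% in the brightest bin, where rises stand at 22.5%.

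Promoters were examined for the elements through which the ER sensors are known to act. The ER stress response element (ERSE), CCAAT-9N-CCACG with any 9 bases between its arms, is bound by NF-Y together with ATF6 or XBP1. It was searched on both strands from 250 bases before to 50 bases after the RefSeq start sites (GRCm38.p6). Only 37 of 27025 genes with a RefSeq promoter held it (0.137%), and 29 of these were measured on the array. Of the 29, 17 rose, 14 of them by at least 2-fold, and 1 fell, with a median difference of 0.91. The element was found in 2.44% of genes that rose by at least 2-fold, in 0.158% of those that rose by less, in 0.091% of genes not called and in 0.042% of genes that fell. Below, stretches upstream of the start are shown 5′ to 3′ on the strand of the gene for 8 of the 15 genes that held the element and changed by at least 2-fold, to let the element be seen next to the size of each change. Capitals mark the element in either orientation.
Derl3, chr10:75893226-75893276, plus strand, difference 5.66: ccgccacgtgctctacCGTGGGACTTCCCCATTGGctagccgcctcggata
Creld2, chr15:88819504-88819554, plus strand, difference 3.89: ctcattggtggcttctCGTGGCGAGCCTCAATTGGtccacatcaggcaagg
Syvn1, chr19:6046516-6046566, plus strand, difference 3.46: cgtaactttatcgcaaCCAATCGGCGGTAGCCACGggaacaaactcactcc
Hspa5, chr2:34772009-34772059, plus strand, difference 2.10: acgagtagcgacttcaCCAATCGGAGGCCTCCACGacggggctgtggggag
Zfp57, chr17:37002476-37002524, plus strand, difference 1.96: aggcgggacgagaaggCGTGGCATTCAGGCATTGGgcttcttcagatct
Xlr3a, chrX:73097149-73097199, minus strand, difference 1.64: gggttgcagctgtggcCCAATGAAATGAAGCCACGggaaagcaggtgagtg
Hnrnpa3, chr2:75659009-75659051, plus strand, difference 1.38: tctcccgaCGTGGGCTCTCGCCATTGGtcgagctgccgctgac
Acacb, chr5:114165415-114165465, plus strand, difference -2.09: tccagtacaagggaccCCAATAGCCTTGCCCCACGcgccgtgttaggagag

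The first 4 genes serve the ER directly, as part of degradation from the ER (Derl3 and Syvn1) or of folding in it (Creld2 and Hspa5, which encodes BiP). The Creld2 element also lies in the promoter of Alg12, a mannosyltransferase gene read in the opposite direction, which rose by 1.55. The next 3 genes shown have other roles. Zfp57, which maintains imprinted methylation in the embryo, was 5.17 with vehicle and rose by 1.96 (SE 0.19). Xlr3a and its relative Xlr3c (1.35) are related X-linked genes with the same letters in the element, and their probes may be shared. Hnrnpa3, an RNA-binding protein of splicing, rose by 1.38 (SE 0.14). Acacb, the mitochondrial acetyl-CoA carboxylase that restrains fatty acid oxidation, was the exception. Its vehicle signals were 7.25, 7.10, 7.16, 8.11 and 7.63 and its tunicamycin signals 5.61, 5.66, 5.35, 5.41 and 4.76. A match to these letters is a description and not evidence of binding.

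The shorter motif TGACGTGG, which XBP1 and ATF6 can bind, was held by 193 of 27025 promoters (0.714%). Of 147 measured genes with it, 55 rose (37.4%) and 11 fell (7.48%). Its share was 4.36% among genes that rose by at least 2-fold and 0.463% among those that fell by as much. At 4-fold or more the shares did not differ in this way, at 3.16% of 95 rises (3 genes) and 3.92% of 51 falls (2 genes). Only 2 measured genes held this motif as well as the ERSE. The largest rises among its holders were Isg20 (2.90), an exonuclease gene, the KDEL receptor gene Kdelr3 (2.47), Ccdc149 (2.31) and the helicase gene Dhx40 (1.91). TGATGNAA, the core of the element shared by ATF4 and C/EBP factors, was held by 4.51% of promoters, by 3.84% of genes that rose and 3.24% of genes that fell by at least 2-fold, and by 4.30% of genes not called. Its share was 7.37% among the 95 genes that rose by at least 4-fold (7 genes) and 3.92% among the 51 that fell by as much (2). Over all measured genes with a promoter it was 3.92%. By list, it was 11.1% among 27 amino acid transporters (3) and 12.5% among 16 genes of serine, one-carbon and proline synthesis (2). The other lists searched ran from 0% to 2.94%.

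The genes described next are from the 20 largest rises and 20 largest falls among named genes, called and with no overlap between treatments, once predicted genes, clone names, pseudogenes and small RNAs were set aside. That left out 4 rises, the largest Gm6614 (5.69), and 11 falls, the largest Serpina4-ps1 (-4.09), with the liver microRNA gene Mir122 (-3.10) among them. Beyond the chaperones of the ER, these rises held genes of nuclear, mitochondrial and membrane proteins. Tspyl2, a nuclear protein that restrains cell proliferation, read 6.94, 6.62, 6.64, 6.53 and 6.73 with vehicle and 10.68, 10.64, 10.86, 10.88 and 11.01 with tunicamycin (4.12 ± 0.11, adjusted p = 4.6e-17, limma). The phosphate importer Slc20a1 read 7.97, 7.87, 7.69, 7.97 and 8.05 with vehicle and 11.90, 12.00, 11.81, 11.74 and 11.88 with tunicamycin (3.96 ± 0.14). Both were raised to a narrow level in all 5 mice, more than 3 log2 units above every vehicle mouse. Nde1, a regulator of dynein and of the centrosome, went from 6.71 to 7.09 over the vehicle mice to 10.28 to 10.86 over the tunicamycin mice (3.65 ± 0.18). Suco, a protein of the ER membrane needed for collagen secretion by osteoblasts, went from 7.36 to 7.70 to 10.92 to 11.22 (3.57 ± 0.12). Ccdc134, a secreted protein retained in the ER, went from 5.67 to 6.23 to 9.43 to 9.67 (3.71 ± 0.15). Acot2, a thioesterase of mitochondrial acyl-CoA, varied more between vehicle mice, which read 7.09, 8.35, 6.99, 7.62 and 6.86, than between tunicamycin mice, which read 10.67, 11.14, 10.69, 10.70 and 10.23 (3.31 ± 0.27). None of these 6 genes overlapped between treatments. The same 20 rises were led by Derl3 (5.66), Ddit3 (5.48), Nupr1 (5.17), Far1 (5.08) and Atf3 (4.88). They also held Psat1 (4.375), Aldh18a1 (4.29), Trib3 (4.20), Nucb2 (4.19), Creld2, Syvn1, Sdf2l1 (3.33), Cdkn1a (3.59) and Cyp2b10 (4.14).

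The 20 falls chosen in this way were led by Ces1d (-3.97), Onecut1 (-3.63), Ces1g (-3.46) and Nr1i3 (-3.42). Keg1 (-3.19), Ces1b (-3.07), Lipg (-3.02) and Ces1f (-2.88) were among them as well, so that genes with the stem Ces recurred. The others held genes of hormone supply, steroid and nucleoside metabolism and transcription. Igfals, which binds insulin-like growth factors in plasma and prolongs their life there, read 8.44, 7.86, 8.43, 8.29 and 8.19 with vehicle and 5.28, 5.42, 5.61, 5.58 and 5.16 with tunicamycin (-2.83 ± 0.14, adjusted p = 3.5e-13, limma). Aqp11, a water channel of the ER, fell by a similar amount (-2.91 ± 0.17), with vehicle mice between 9.07 and 9.28 and tunicamycin mice further apart, between 5.87 and 6.72. Upp2, a uridine phosphorylase of liver, fell by 2.97 (SE 0.21), and Nmrk1, which phosphorylates nicotinamide riboside, by 2.55 (SE 0.16). Steroid dehydrogenases Hsd3b2 (-2.91), Hsd3b3 (-2.58) and Hsd3b5 (-2.56), whose probes may be shared, fell as well. Srebf1, the transcription factor of fatty acid synthesis, read 8.67, 8.26, 8.26, 9.57 and 8.35 with vehicle and 5.75, 5.82, 6.11, 5.87 and 5.89 with tunicamycin (-2.74 ± 0.24). Ppargc1a, a coactivator of mitochondrial and gluconeogenic genes, read 6.97, 7.12, 7.22, 6.77 and 7.45 with vehicle and 4.76, 4.90, 4.02, 4.45 and 4.25 with tunicamycin (-2.63 ± 0.20). For Srebf1, 1 vehicle mouse stood above the other 4, and none overlapped with tunicamycin. Phlda1 (-2.76), Apol7a (-2.83) and Olfml1 (-2.57) were further falls in which no tunicamycin mouse reached a vehicle mouse.

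**Figure D2:**
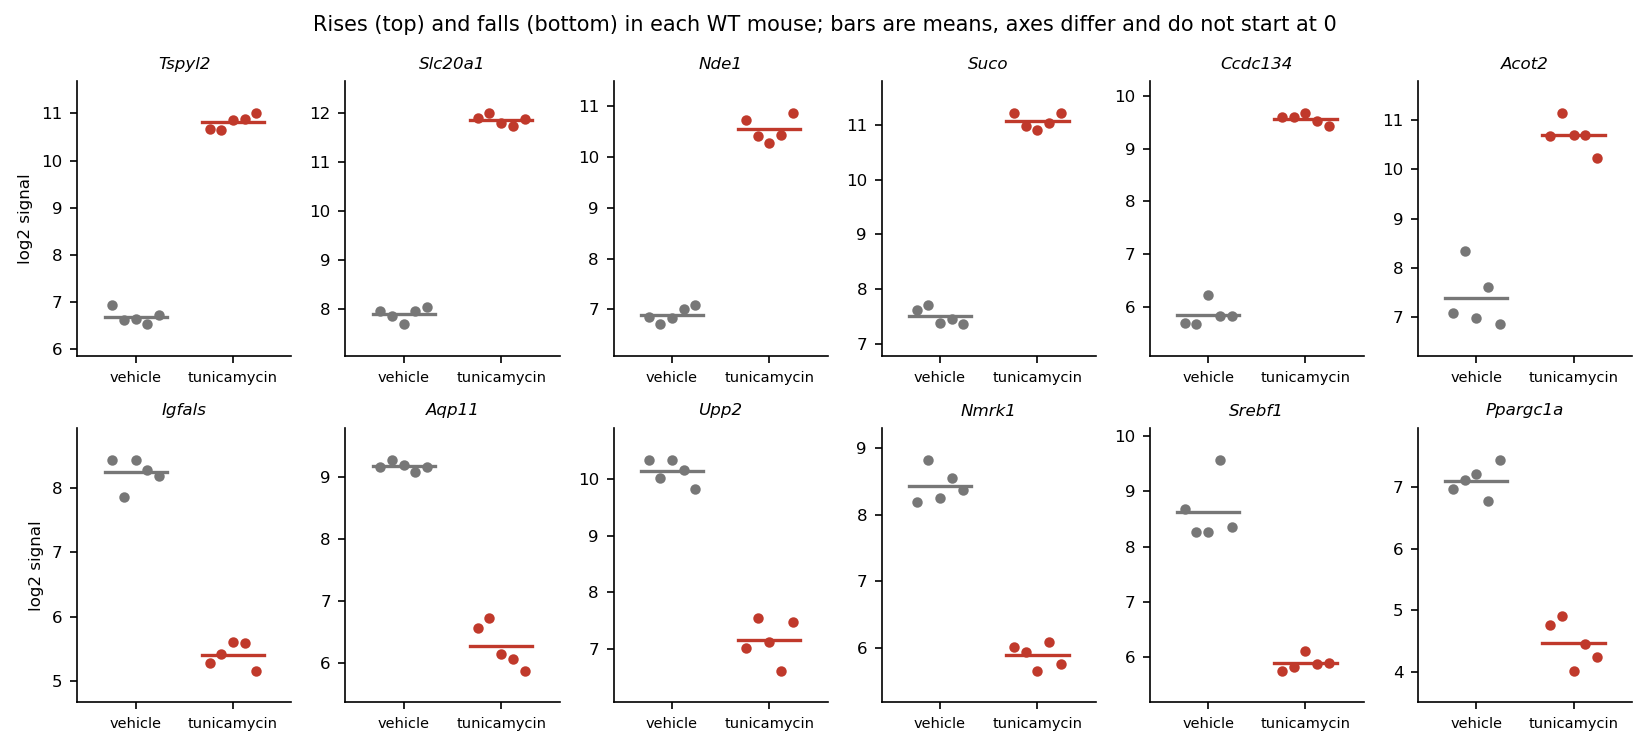
Log2 signal of 12 genes in each WT mouse, with vehicle (grey) and tunicamycin (red) arrays as points and group means as bars; the upper row holds rises and the lower row falls among the 20 largest in each direction without predicted genes, clone names, pseudogenes and small RNAs. In every panel the 5 tunicamycin mice lie wholly above or below the 5 vehicle mice.

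Genes that build ribosomes rose almost as a block. Of 39 measured genes of ribosome biogenesis, 32 rose and 0 fell, with a median of 0.80 against -0.03 for all genes, and the list mean was 0.74 to 0.92 above vehicle in each of the 5 mice. Nop58, a core protein of box C/D small nucleolar ribonucleoproteins, read 8.25, 8.24, 7.86, 8.15 and 8.17 with vehicle and 10.59, 10.44, 10.29, 10.03 and 10.33 with tunicamycin (2.20 ± 0.14). Ltv1, needed for export of the small subunit (1.70 ± 0.09), the nucleolar protein genes Mybbp1a (1.5 ± 0.13) and Gnl3 (1.41 ± 0.13), and nucleolin (Ncl, 1.17 ± 0.11) followed. The proteins of the mature cytosolic ribosome moved little. Among 63 genes, 13 rose and 1 fell (Rps27l, -0.20, a call lost without any of vehicle replicates 1 and 2 and tunicamycin replicates 1, 2, 3 and 5, where the adjusted p reached 0.156), and their median of 0.10 turned to -0.38 with housekeeping centring and to -0.01 with centring on the deviation. Genes of the mitochondrial ribosome had 12 rises and 18 falls among 68. The sharpest fall in that list was Mrpl49 (-2.08 ± 0.13), which read 7.62 to 7.92 with vehicle and 5.43 to 6.13 with tunicamycin. In RefSeq Mrpl49 overlaps Syvn1, which rose by 3.46, so that signals of the pair may not be separate.

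Initiation factors rose as well, in a smaller measure. Of 51 genes of the Eif family, 31 rose and 2 fell (4 fell without tunicamycin replicate 5), with a median of 0.30 that became -0.19 under housekeeping centring and stayed above 0 in the other scalings. Eif1a, which helps the ribosome to scan for the start codon, rose the most (1.71 ± 0.12), followed by the PERK gene Eif2ak3 (1.65), Eif6 (1.05) and Eif3a (1.03). The 2 falls were Eif4ebp2 (-1.23 ± 0.12), an inhibitor of cap binding, which read 9.0 to 9.42 with vehicle and 7.78 to 8.15 with tunicamycin, and Eif2ak2 (-0.85 ± 0.12), the kinase PKR that senses double-stranded RNA. Among 34 genes of nutrient sensing and mTORC1 control, 10 rose and 13 fell. The brakes Ddit4 (1.63), Sesn2 (1.59) and Grb10 (1.40) rose, whereas Fnip2 (-1.49) and the relatives of Sesn2, Sesn1 (-0.79) and Sesn3 (-0.57), fell.

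Small nucleolar RNAs (snoRNAs), which guide modification of ribosomal RNA and are mostly cut out of introns, did not follow the genes that hold them. Of 80 measured snoRNA genes, 6 rose and 26 fell, with a median of -0.26. The number that fell hung on single arrays, as it was 15 without vehicle replicate 1 and 8 without tunicamycin replicates 1 and 2. The median vehicle signal of the snoRNAs, 8.49, lay in the brightest bin of genes, where 43.6% fell and the median difference was -0.20. A difference between snoRNAs and other genes of that signal was not tested. By RefSeq position, 65 snoRNAs lay within exactly 1 measured protein-coding or long non-coding gene, and for 40 of these that gene had risen. The 28 such host genes had a median of 0.60, whereas their 40 snoRNAs had a median of -0.22, with 4 rises, 9 falls and 27 not called. The 11 hosts that rose by at least 2-fold had a median of 1.53. Their 21 snoRNAs had a median of -0.02, with 3 rises and 3 falls. In 39 of the 40 the difference of the snoRNA lay below that of its host, also without any 1 array and without tunicamycin replicates 1 and 2. These hosts were taken because they had risen, which by itself favours a lower snoRNA. The host Snhg1 read 6.22, 6.58, 6.11, 6.6 and 6.14 with vehicle and 9.13, 9.0, 8.40, 8.09 and 8.53 with tunicamycin (2.30 ± 0.20). Snord22, which lies within it, read 11.70, 11.53, 11.61, 11.39 and 11.33 with vehicle and 11.21, 11.12, 11.22, 11.06 and 11.37 with tunicamycin (-0.32 ± 0.09, adjusted p = 0.0137, limma). The host was higher in every tunicamycin mouse, whereas the snoRNA overlapped between treatments, and its call was lost under cyclic loess (-0.20, adjusted p = 0.107, limma). Nop58 itself holds Snord11 (-0.02) and Snord70 (-0.26), neither of them called. The 4 that rose were Snora19 (0.68) within Eif3a, Snord53 (0.79) within Wdr43 (1.53), Snord43 (1.06) within Rpl3 (0.35) and Snord123 (0.89) within Snhg18 (1.07), and of the 40 Snord43 alone exceeded its host. Strand was not considered, and probes of a host can cover the snoRNA. Of 22 listed snoRNA host and other long non-coding RNAs, 10 rose, led by Snhg1, Snhg12 (1.80), Snhg5 (1.78) and Snhg15 (1.69), and Neat1 (-0.57) and Snhg11 (-0.40) fell. The median of this list, 0.24, became -0.25 under housekeeping centring and 0.12 under centring on the deviation. The call of Neat1 was lost without vehicle replicate 4 or 5 or tunicamycin replicate 3 or 5 (adjusted p up to 0.103, limma). With the brightest probeset of each gene in place of the mean, Snhg11 was at -0.08 (adjusted p = 0.724, limma) and Rpl3 at 0.05 (adjusted p = 0.815, limma), and neither was called.

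**Figure D3:**
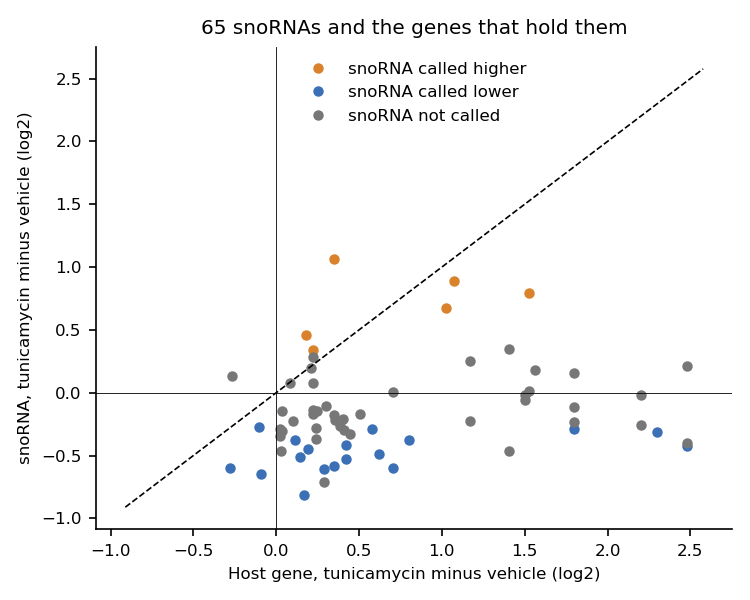
Difference (tunicamycin minus vehicle, log2) of each of 65 snoRNAs (vertical) against that of the gene that holds it (horizontal), with snoRNAs called higher in orange, called lower in blue and not called in grey. The dashed line marks equal differences; 39 of the 40 snoRNAs in hosts that rose lie below it.

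Beyond the ER, the next stations of the secretory route rose. Of 51 genes of COPI coats, Golgi tethers and cargo receptors, 43 rose and 3 fell, with a median of 0.71 and a list mean 0.69 to 0.78 above vehicle in the 5 mice. Kdelr3, which returns escaped chaperones to the ER, rose from 4.57 to 4.95 over the vehicle mice, near the array median, to 6.88 to 7.51 (2.47 ± 0.16). Stx5a, a SNARE of ER-to-Golgi fusion (1.90 ± 0.12), Mcfd2, the partner of the cargo receptor for coagulation factors V and VIII (1.93 ± 0.13), and Arfgap3, which acts on COPI coats (1.93 ± 0.16), were next. Against this majority, the cargo receptor genes Ergic3 (-0.70 ± 0.10) and Ergic1 (-0.34) and the tether gene Cog4 (-0.49) fell. The call of Ergic1 was lost without vehicle replicate 4 or 5 or tunicamycin replicate 1 (adjusted p up to 0.0649, limma). With housekeeping centring 22 genes of the list were called higher, and with centring on the deviation 41. Of the 44 members of this list with a RefSeq promoter, 6 held TGACGTGG (13.6%, against 0.869% of all measured genes with a promoter) and 0 held the ERSE. In the other lists searched, the share with TGACGTGG ran from 0% to 13%. The 13% was that of metallothioneins and zinc transporters (3 of 23 genes).

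Machinery of transcription and RNA processing rose in part. Of 30 Mediator subunits, 12 rose and 0 fell, led by Med31 (0.93 ± 0.21). Their median of 0.24 became -0.24 under housekeeping centring and 0.13 under centring on the deviation. Of 38 splicing factor genes 15 rose, led by Hnrnpa3. Their median of 0.23 became -0.26 under housekeeping centring and 0.11 under centring on the deviation. Hnrnpl (-0.56) and Hnrnpll (-0.36) fell. Among 62 chromatin regulators 19 rose and 15 fell. Histone demethylases with the stem Kdm had 9 rises and 1 fall (Kdm1b, -0.60) among 17. Their median of 0.34 became -0.14 under housekeeping centring and 0.23 under centring on the deviation. Kdm6a (1.64 ± 0.11), which removes methyl groups from H3K27, led at 7.55 to 7.84 with vehicle and 9.10 to 9.52 with tunicamycin. Deacetylases with the stem Hdac had 1 rise (Hdac8, 0.82 ± 0.13) and 5 falls among 11, with a median of -0.21 that stayed below 0 in every scaling. These stems were picked after their counts were seen, and the difference between them was not tested. Numbered zinc finger genes had 65 rises and 29 falls among 362, with Zfp9 (2.28 ± 0.11) and Zfp324 (2.11) at the upper end and Zfp750 (-2.22 ± 0.19) and Zfp395 (-1.18) at the lower. Of 49 basic leucine zipper factors 16 rose and 9 fell. Crebrf (-1.27), a regulator of CREB3 factors, was a fall beside rises of Creb3l2 (1.37) and Creb3 (0.69). Histone genes were mostly not called, with 6 rises among 41, of which the linker histone H1f2 was the largest (2.13 ± 0.27). Their share of rises, 14.6%, was near the 13.7% of all genes.

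Mitochondrial energy genes fell by small amounts but in large numbers. Of 77 subunits of the respiratory chain and ATP synthase, 56 fell and 2 rose, with a median of -0.42 and a list mean 0.30 to 0.46 below vehicle in the 5 mice. The ATP synthase gene Atp5k fell from 8.48 to 8.99 over the vehicle mice to 7.49 to 7.87 (-1.11 ± 0.12). Sdhd, of succinate dehydrogenase, fell from 9.84 to 10.07 to 8.77 to 9.08 (-1.06 ± 0.09). The 2 rises were Cox6a2 (1.63 ± 0.14), the muscle form of a cytochrome c oxidase subunit, from a vehicle range of 5.15 to 5.51, and Atp5g1 (0.46). In the tricarboxylic acid cycle and pyruvate dehydrogenase 11 of 21 genes fell, and Pdhb (1.11 ± 0.13), Cs (0.67) and Mdh2 (0.29) rose, the last of them not without vehicle replicate 1, 2 or 3 or tunicamycin replicate 5 (adjusted p up to 0.0667, limma). Peroxisomal genes had 18 falls among 35 (51.4%, beside 43.6% in the brightest bin of all genes). Among them were Hacl1 (-1.91 ± 0.15), which shortens branched and hydroxylated fatty acids, Hao1 (-1.89 ± 0.14), which makes glyoxylate, and Abcd2 (-1.81). The lone rise was Pex2 (1.04 ± 0.10), a ubiquitin ligase of peroxisomal import. Mitochondrial proteostasis went the other way in part, with rises of Atf5 (1.51), Clpx (1.13), Lonp1 (0.86) and Hspa9 (0.67) among 7 rises and 5 falls of 23 genes (3 falls without tunicamycin replicate 1).

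In NAD metabolism 16 of 21 genes fell and 1, Nmnat3 (0.33), rose. Falls spanned salvage (Nmrk1, Nampt at -1.30, Naprt at -1.09) and the route from tryptophan (Ido2 at -1.71, Afmid at -1.44, Haao at -1.28, Qprt at -1.20). Of 30 genes of purine and pyrimidine metabolism 9 rose and 11 fell. Cad, the first enzyme of pyrimidine synthesis, read 5.66, 5.51, 5.82, 5.90 and 6.02 with vehicle and 7.67, 7.70, 7.90, 7.83 and 7.54 with tunicamycin (1.94 ± 0.12), and CTP synthase (Ctps) rose by 1.66 (SE 0.12). The degrading enzymes Upp2 and Dpys (-1.95 ± 0.18) fell. Of 18 genes of serine, one-carbon and proline synthesis 8 rose and 5 fell. The mitochondrial Mthfd2 (2.26) and Aldh1l2 (1.58) were among the rises and the cytosolic Mthfd1 (-1.15), Aldh1l1 (-1.02) and Shmt1 (-1.07) among the falls, while the mitochondrial Shmt2 was not called (-0.10). Of the glutathione-degrading enzymes Chac1 rose (2.19) and Chac2 fell (-1.33 ± 0.09), and the subunits of the first synthetic enzyme, Gclc (-1.01) and Gclm (-0.69), fell.

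Lipid genes fell more often than they rose. Of 23 genes of apolipoproteins and lipoprotein handling 18 fell, including the sterol exporters Abcg5 (-2.09) and Abcg8 (-2.03), the receptor Lrp1 (-2.07) and Apoa5 (-2.02), and Vldlr (0.56) and Pltp (0.55) rose. The call of Vldlr was lost without any of tunicamycin replicates 2, 4 and 5 and vehicle replicates 2, 3, 4 and 5 (adjusted p up to 0.129, limma). Lipins, which make diacylglycerol, diverged. Lpin3 went from 4.94 to 5.60 with vehicle to 7.28 to 7.50 (2.02 ± 0.13), and Lpin2 from 8.10 to 8.98 to 6.42 to 6.86 (-1.91 ± 0.22). Among 27 sphingolipid genes 6 rose and 8 fell. Ormdl2, an ER protein that restrains the first step of sphingolipid synthesis, rose from 9.54 to 9.89 to 11.35 to 11.51 (1.73 ± 0.08), and Kdsr, which carries out the next step, fell (-1.04). Choline kinase (Chka) rose by 1.45, and Agpat2 (-1.52), Chpt1 (-1.13) and Pcyt2 (-1.04) fell.

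Genes of receptors and contacts at the cell surface fell broadly, and the cell types that carry them were not resolved in whole liver. Of 48 receptors for hormones, cytokines and growth factors 33 fell and 5 rose, with a median of -0.48. Met, the receptor for hepatocyte growth factor, read 9.20, 9.42, 9.40, 9.04 and 9.30 with vehicle and 8.06, 8.06, 8.03, 7.79 and 7.50 with tunicamycin (-1.38 ± 0.12). Erbb3 (-1.71 ± 0.22), Il1r1 (-1.55), P2ry1 (-1.53) and Fzd4 (-1.50) fell the most. The 5 rises were Lepr (1.33), Ifngr1 (1.23 ± 0.16), Avpr1a (0.91 ± 0.16), Fzd5 (0.87) and Ifnar1 (0.60). For the leptin receptor gene Lepr the mice overlapped, with 4.53, 5.53, 3.70, 4.69 and 4.48 under vehicle and 7.37, 5.45, 5.75, 4.68 and 6.33 under tunicamycin (SE 0.47, adjusted p = 0.0363, limma). That call was lost without any of vehicle replicates 1, 3, 4 and 5 and tunicamycin replicates 1, 3 and 5, with a difference of 0.97 and an adjusted p of 0.132 without tunicamycin replicate 1. Among 21 junction and adhesion genes 13 fell and F11r (0.38) rose. The tight junction gene Cldn1 fell from 8.52 to 9.21 to 6.50 to 7.17 (-1.99 ± 0.20), and Cldn2 (-1.58 ± 0.14), the cadherins Cdh1 (-1.04) and Cdh2 (-0.97) and occludin (Ocln, -0.92 ± 0.16) fell with it. Of 39 extracellular matrix genes 7 fell, led by fibronectin (Fn1, -0.96), and 0 rose. The cytoskeleton list had 10 rises and 2 falls among 29, the falls being Vcl (-0.88) and Lmnb1 (-0.44), and its median of 0.04 fell below 0 under either centring. The tubulin gene Tubb6 read 6.26, 5.79, 6.54, 6.51 and 6.19 with vehicle and 8.40, 8.63, 8.83, 8.87 and 9.03 with tunicamycin (2.49 ± 0.24), and Krt23 (1.89 ± 0.28) and Tubb5 (1.55) followed.

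Degradation outside the ER did not move as a unit. Of 47 proteasome genes 3 rose and 8 fell (6.38% and 17.0%, against 13.7% of all genes in each direction). Psme3, an activator of nuclear proteasomes, rose (0.93 ± 0.10), and Psmb10 (-0.95 ± 0.17) and Psmb9 (-0.68), of the immunoproteasome, fell. The autophagy list was evenly divided, with 10 rises and 9 falls among 43. The cargo receptor gene Sqstm1 (1.49 ± 0.10) and Atg13 (1.39 ± 0.08) rose, and the kinases Ulk1 (-0.84 ± 0.12) and Ulk2 (-0.85), which act in 1 complex with ATG13, fell. Lysosomal genes had 17 falls among 37 (45.9%, beside 43.6% in the brightest bin of all genes), such as Gusb (-0.86 ± 0.12). The 4 rises were led by the protease gene Ctsl, which read 10.68 to 11.07 with vehicle and 12.10 to 12.26 with tunicamycin (1.31 ± 0.10). In the cytosol the heat shock genes did not rise together. The inducible Hsp70 gene Hspa1b fell from 6.79 to 7.20 to 4.82 to 6.33 (-1.32 ± 0.21), and Bag3 rose (1.18 ± 0.12), with 4 rises and 8 falls among 28. Of 8 transcripts reported to be cut by IRE1, 3 fell and 0 rose. The standard marker of that cleavage, Bloc1s1, fell from 7.70 to 7.93 to 5.94 to 6.44 (-1.62 ± 0.11).

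Lists of metal handling and transport held calls in both directions. Among metallothioneins and zinc transporters 13 of 27 rose, including Mt2 (2.71), Slc30a3 (2.30), Slc39a6 (2.03) and Slc30a5 (1.67). The list median of 0.18 became -0.31 under housekeeping centring and 0.06 under centring on the deviation. Slc39a4 (-0.60), Slc39a8 (-0.35) and Slc39a1 (-0.28) fell. Only 1 of these falls was called without vehicle replicate 3 or 5 or without tunicamycin replicate 1 or 5, and the adjusted p reached 0.14 for Slc39a4 and 0.113 for Slc39a1. Of 31 iron and heme genes 7 rose and 12 fell. Flvcr1, described as a heme exporter, (1.77 ± 0.22) and heme oxygenase Hmox1 (1.62 ± 0.31) rose, and Alas1, the first enzyme of heme synthesis, fell from 11.15 to 11.72 to 9.63 to 10.48 (-1.34 ± 0.22). Solute carriers were called in equal measure, 68 rises and 72 falls among 375, with Slc20a1, the arginine and lysine transporter Slc7a1 (3.08 ± 0.22), Slc17a9 (2.98) and Slc26a2 (2.32) at the upper end and Slc22a30 (-2.54) and Slc16a12 (-2.34) at the lower. Of 345 symbol families with at least 8 measured genes, 194 held calls in both directions and 41 held changes of at least 2-fold in both. With 13.7% of all genes called in each direction, a family can hold both by its size alone. Whether families were divided more often than that was not tested. Among genes with the stem Atp, Atp2a2, the calcium pump of the ER, rose (2.15 ± 0.10), and Atp1b1, a subunit of the sodium pump, fell (-1.79). Others were the ubiquitin proteases, with Usp1 up (1.57) and Usp2 down (-2.12), the aquaporins, with Aqp4 up (1.32) and Aqp11 down, and the acyl-CoA thioesterases, with Acot2 up and Acot3 down (-1.29).

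**Figure D4:**
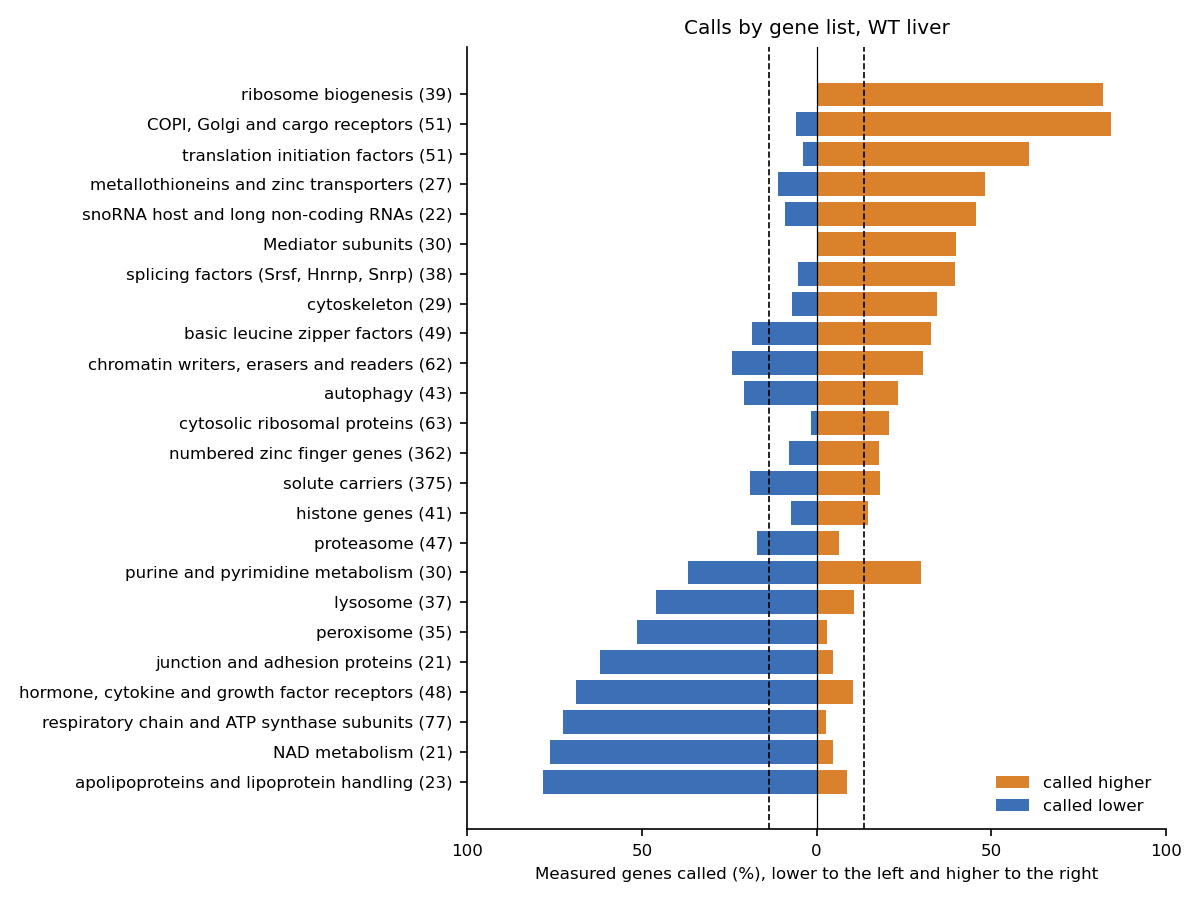
Percentage of the measured genes of 24 lists called higher (orange, to the right) and called lower (blue, to the left) with tunicamycin in WT liver, with the number of measured genes in brackets. Dashed lines mark 13.7%, the share of all genes called in each direction, not matched to the signal of the lists. Ribosome biogenesis reaches 82.1% higher and 0% lower, and respiratory chain subunits 72.7% lower and 2.6% higher.

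Mice of one treatment differed little in most genes, with a median standard deviation (SD) of 0.17 for vehicle and 0.19 for tunicamycin. Among genes called, the spread grew the most in Cyp7a1, the enzyme that sets the pace of bile acid formation. It read 11.41, 11.07, 10.87, 11.12 and 11.10 with vehicle and 10.04, 9.93, 10.39, 8.61 and 7.36 with tunicamycin (-1.85 ± 0.50, adjusted p = 0.0061, limma), so the SD went from 0.19 to 1.27. Abcb1b, a drug exporter, read 3.74 to 4.43 with vehicle and 4.58, 4.83, 7.28, 5.22 and 4.82 with tunicamycin (1.23 ± 0.33). Its high value in tunicamycin replicate 3 went with genes of the adrenal cortex, which were listed after these values were seen. The steroidogenic genes Cyp11b1 and Star read 7.79 and 9.04 in replicate 3, 4.84 and 6.74 in replicate 4, and at most 3.80 and 5.59 in the other 8 arrays. In the same replicate Hsd3b1 read 7.19 and Cyp11a1 5.86, against at most 3.26 and 3.98 outside replicates 3 and 4. Cyp21a1 (6.95) and Mc2r (4.70) were high there as well, against at most 5.39 and 3.33 in the other arrays. The remaining adrenal genes did not stand out. Nr5a1 read 4.92, against at most 4.85 elsewhere, and Cyp11b2 read 3.67, below its vehicle mean of 4.01. Without tunicamycin replicates 1 and 2, Cyp11b1 differed by 2.46 and Star by 2.05, both called. None of the 8 adrenal genes measured was called over all arrays weighted alike. Array weights called Cyp11b1 (1.68, adjusted p = 0.0406, limma) and Star (1.49, adjusted p = 0.0266, limma), leaving out dim genes called Star (adjusted p = 0.0449, limma), and both were called without tunicamycin replicate 1 or replicate 2 alone. The part of these genes in the value of Abcb1b was not tested. Steap4, an iron and copper reductase, ranked next by gain in spread (-1.23 ± 0.41), with tunicamycin mice between 7.37 and 9.60. Its call was lost without any of vehicle replicates 2 and 3 and tunicamycin replicates 2, 4 and 5 (adjusted p up to 0.09, limma).

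Acute-phase genes varied between mice under both treatments. Saa2, a serum amyloid of the inflamed liver, read 8.86, 8.98, 13.05, 10.02 and 12.08 with vehicle and 11.90, 9.22, 11.85, 12.95 and 9.96 with tunicamycin. Lcn2 read 7.23, 7.52, 10.66, 8.03 and 9.85 with vehicle and 10.43, 9.06, 9.79, 10.58 and 8.52 with tunicamycin. In both genes vehicle replicates 3 and 5 reached the range of the tunicamycin mice, and neither gene was called (adjusted p = 0.715 and 0.31, limma). Of 11 acute-phase genes measured, Apcs (1.67 ± 0.47) and Orm3 (1.69 ± 0.55) were called higher and Crp (-0.96 ± 0.18) lower. The call of Orm3 was lost without any of vehicle replicates 1 and 4 and tunicamycin replicates 1, 2 and 4 (adjusted p up to 0.0789, limma). Without vehicle replicates 3 and 5 and tunicamycin replicate 3, the calls over all genes numbered 2650 rises and 2499 falls, and the difference of Lcn2 was 2.06 (adjusted p = 0.0367, limma).

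**Figure D5:**
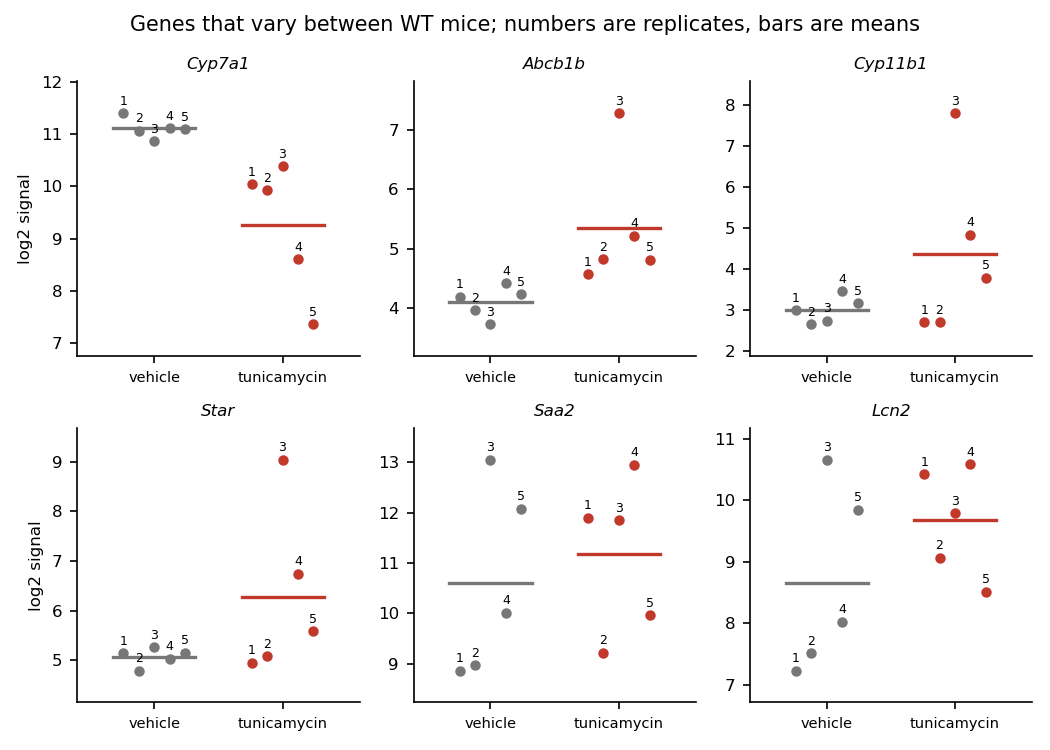
Log2 signal of 6 genes in each of the 10 WT mice, numbered by replicate, with vehicle in grey and tunicamycin in red. Cyp11b1 and Star stand out in tunicamycin replicate 3 (7.79 and 9.04), Saa2 and Lcn2 are high in vehicle replicates 3 and 5, and Cyp7a1 is lowest in tunicamycin replicates 4 and 5 (8.61 and 7.36).

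The response of WT liver was set against that of NFIL3 KO liver to find where it differed. Over 22180 genes, 2 were called in this test (limma), and 1019 had an unadjusted p under 0.05. Adra1b, the α1-adrenergic receptor of hepatocytes, read 8.02, 7.91, 8.15, 8.26 and 8.06 with vehicle and 6.81, 6.90, 6.68, 6.99 and 6.76 with tunicamycin in WT liver (-1.25 ± 0.12). In NFIL3 KO liver it differed by -0.19 ± 0.12, so that the WT response was lower by 1.06 ± 0.16 (adjusted p = 0.0171, limma). Auh, an enzyme of leucine breakdown, fell in WT liver by 0.48 (SE 0.14) and rose in NFIL3 KO liver by 1.08 (SE 0.14), a difference between responses of -1.56 ± 0.20 (adjusted p = 0.00167, limma). With vehicle, Auh was already higher in NFIL3 KO liver (7.005 to 7.176) than in WT liver (6.360 to 6.595). The cause of this gap, and its part in the difference between responses, were not tested. Adra1b was no longer called without vehicle replicate 3 or 4 or tunicamycin replicate 3 or 5 of the WT mice, nor without vehicle replicate 2 or tunicamycin replicate 2, 4 or 5 of the NFIL3 KO mice (adjusted p 0.0515 to 0.0576, limma).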

How the data were processed

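Liver RNA was hybridised to Affymetrix MoGene-2_0-st arrays, 1 array per mouse. The authors deposited RMA values on the log2 scale, summarised in Partek after quantile normalization, by median polish of the probes. No detection calls come with them, and signal over background is therefore unknown. The genome build of the annotation is not given in the sources used here. All 20 columns were mapped to samples by title and 0 columns were left unmapped. Of 41345 probesets, 23521 had 1 gene symbol; probesets with several (1820) or none (16004) were left out, and probesets of a gene were averaged to 22180 genes. limma 3.58.1 (R 4.3.3) was fitted to all 20 arrays with 4 group means, and differences were called at a Benjamini-Hochberg adjusted p under 0.05. The fit was tested on simulated data. Labels give neither litter nor day, so batches could not be examined. Promoters, gene neighbours and protein-coding status were taken from RefSeq (GRCm38.p6). Alternatives covered the arrays in the fit, scaling, filters, probesets, the variance model and single arrays left out.

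Genes were named by rule: the 20 largest rises and falls among called genes whose groups do not overlap, leaving out predicted genes, clone and accession names, pseudogenes and small RNAs, up to 4 of each in a gene list, all members of a list that went against its majority where 3 or fewer did, the extremes of families that split at 2-fold, genes with a genotype difference, and those with the largest gain in spread. Members and lists were chosen with earlier results of these data known. Calr, Cyp11b2, Cyp21a1, Ero1b, Hsp90b1, Mc2r, Nr5a1, Pdia6 and Trh were named outside the rule, after their values were seen. Outside the rule, and chosen after their values were seen, were Acacb, Aldh1l2, Alg12, Apcs, Ccdc149, Creb3, Creb3l2, Crp, Cyp11a1, Cyp11b1, Dhx40, Gclm, Gm6614, Haao, Hdac8, Hsd3b1, Ifnar1, Isg20, Kdm1b, Lcn2, Met, Mir122, Naprt, Ncl, Ocln, Orm3, Qprt, Rpl3, Saa2, Sesn3, Shmt2, Snhg18, Snora19, the Snord genes, Star, Wdr43, Xlr3a and Xlr3c.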

Additional observations from a re-analysis of the deposited data

Results flagged for a closer look

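The response to tunicamycin differed between WT and NFIL3 KO liver by -1.06 for Adra1b and by -1.56 for Auh, by a test of the difference itself.

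Groups of 5 arrays were examined for 234 of the genes named here, 2 groups for each gene. In 24 of the 468 groups, 1 array lay far from the other 4 by Dixon's test, and chance gives about 1 group in 20. Tunicamycin replicate 3 was high for Abcb1b (7.28), Hsd3b1 (7.19) and Mt2 (11.93) and low for Ccng1 (9.93). Tunicamycin replicate 4 stood apart for Afmid (6.94), Aldh1l1 (9.50), Fzd5 (6.29) and Olfml1 (4.74). Replicate 5 did so for Cyp2b10 (9.07) and Fzd4 (6.17), and replicate 1 for Snord123 (6.86). Among vehicle arrays, replicate 1 stood apart for Stx5a (9.02), and replicate 2 for Cdh1 (6.07) and Ergic3 (8.70). Replicate 3 did so for Hspa9 (11.43), Nop58 (7.86), Psme3 (6.90) and Slc7a1 (4.82). Replicate 4 did so for Crebrf (6.54), H2-Q10 (8.60), Ifngr1 (7.54) and Snhg11 (5.59). Replicate 5 did so for Rpl3 (6.83) and Zfp750 (7.71).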

How the results depend on the processing

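The counts of 3035 rises and 3042 falls stayed within 1.5 times except with housekeeping centring (1046 and 16258), housekeeping deviation centring (4840 falls, an alternative chosen after seeing the data), probesets in place of genes (4794 rises) and a minimum of 1.5-fold (1627 and 1398). With single arrays left out they ranged from 2786 to 3017 and from 2798 to 2917. The replicate numbers do not pair the mice (correlations of deviations from -0.07 to 0.02, with 0 of 5 arrays closest to their own number), and with the replicate block 2978 genes rose, 2969 fell and 1 differed between genotypes. That last count, 2 in the report, was 1 to 3 with single arrays left out, and 1 with probesets, without tunicamycin replicates 1 and 2, and without vehicle replicates 3 and 5 and tunicamycin replicate 3, both chosen after seeing the data. Rises in ribosome biogenesis ranged from 30 to 33 without single arrays and in the COPI list from 42 to 43 (22 with housekeeping centring). Falls in the respiratory list ranged from 51 to 55 (17 at 1.5-fold or more) and in the receptor list from 31 to 33 (20). Falls of snoRNAs ranged from 15 to 31, and were 66 and 40 with the 2 centrings, 8 without tunicamycin replicates 1 and 2, and 6 at 1.5-fold or more. Among rises of at least 2-fold, 2.44% in place of 0.688% held the ERSE and 4.36% in place of 2.23% TGACGTGG. Housekeeping centring turned Atp5g1 (-0.025), F11r (-0.10), Mdh2 (-0.19), Nmnat3 (-0.16) and Rpl3 (-0.14), and Snord11, not called, ranged from -0.078 to 0.036 (0.013 without tunicamycin replicate 4 and 0.016 without vehicle replicate 5) and was 0.02 without vehicle replicates 3 and 5 and tunicamycin replicate 3. Alternatives were followed for 234 of the genes named here. Of the 225 called among these, 21 lost the call under at least 1 alternative other than the centrings. Centring on the deviation turned the sign of 0 of the 225. The causes were not tested. Arrays per group limit the precision, and 8 h was the only time.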

Other observations

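Further gene groups with values not given above are described here as measured, in WT liver and on the log2 scale. Of 30 genes of innate sensing 8 fell and 4 rose (2 without tunicamycin replicate 1 or 2 or vehicle replicate 4). Their median of 0.07 became -0.41 under housekeeping centring and -0.04 under centring on the deviation. The falls were 26.7% and the rises 13.3%, against 13.7% of all genes in each direction. Nlrp6, an inflammasome sensor of epithelia, fell by 1.95, the flagellin receptor Tlr5 by 1.34 and the RNA sensor Ddx58 by 0.91, and the DNA sensor Cgas rose (0.77). Of 10 genes with the stem Irf, interferon regulatory factors and a relative, 6 fell and 0 rose, a stem picked after its count was seen. In antigen presentation 7 of 17 fell, such as the liver class I gene H2-Q10 (-0.89), and the peptide editor gene Tapbpl rose (1.06). Among 27 genes of selenoproteins and their synthesis 10 fell, led by the deiodinase gene Dio1 (-1.64), and 4 rose. Selenos, which serves degradation from the ER, read 6.53, 5.75, 5.65, 6.24 and 6.23 with vehicle and 7.57, 7.24, 7.93, 8.12 and 8.64 with tunicamycin. The selenocysteine factor gene Secisbp2 rose as well (0.79).

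Of 45 cell cycle genes 8 rose and 6 fell (3 fell without vehicle replicate 3), and these were of mixed roles. The shares, 17.8% and 13.3%, were near the 13.7% of all genes called in each direction. Top2a, the topoisomerase of dividing cells, went from 4.10 to 4.59 with vehicle to 5.84 to 6.13 with tunicamycin (1.67), and the p53 target Ccng1 rose by 1.34, whereas Cdk1 (-0.61) and Ccnd3 (-0.45) fell. In glycolysis and the pentose phosphate route 8 of 28 genes fell and 3 rose. The bifunctional regulators diverged, with Pfkfb2 at 1.59 and Pfkfb3 at -1.53, and Tpi1 fell by 1.25. Id3, a target of BMP signalling, rose by 2.17. Among KLF, EGR and SP factors 6 rose and 6 fell (3 rose without tunicamycin replicate 3), from Klf10 (1.15) to Klf13 (-1.18). The call of Klf10 was lost without tunicamycin replicate 3 or vehicle replicate 3 (adjusted p = 0.0521 and 0.0563, limma). Dusp1, a phosphatase of MAP kinases, fell by 1.54, and Dusp8 rose (1.13). The hypoxia factor Epas1 fell (-1.25). Long non-coding RNA genes, measured in 1926 cases, had 73 rises and 125 falls, and 478 microRNA genes had 15 and 26.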
